A study of Mus musculus with 5 samples.

Results

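The genes described here are the mouse zinc finger genes whose symbol is Zfp followed by a number, in macrophages given bacterial lipopolysaccharide (LPS). They were chosen by symbol and by their average level, which had to reach 1 FPKM across the 5 libraries (FPKM, fragments of the library per kilobase of a transcript, relative to all mapped fragments). Zfp36, which encodes tristetraprolin, an mRNA decay factor with a different finger type, was left out. Of 310 such symbols in the table, 208 passed the filter, among 9795 genes of any kind that did (2.12%), and 102 did not. The 3 members just inside the limit were Zfp11 (mean 1.002 FPKM), Zfp770 (1.008 FPKM) and Zfp82 (1.044 FPKM), and the 3 just outside it were Zfp810 (0.996 FPKM), Zfp799 (0.98 FPKM) and Zfp287 (0.978 FPKM).

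Bone marrow of C57BL/6 mice aged 8 weeks was grown for 5 days with the growth factor M-CSF into bone marrow-derived macrophages, titled WT2 in every sample, where the labels do not explain the 2. LPS was given at 100 ng/ml, and RNA was sequenced at 0, 4, 8, 12 and 24 h, with a single library at each time. No p-value or SD could be computed, each difference is between 2 libraries, and all comparisons with 0 h share the same 0 h library. No cells kept as long without LPS were included, and effects of culture time and of LPS cannot be told apart. The RNA extraction text speaks of mDCs where every other label speaks of macrophages. All 8 macrophage markers looked for were listed, with a summed level of 2753 to 3260 FPKM. The 6 dendritic cell markers summed to 14.8 to 47.2 FPKM and the 5 listed lymphoid markers to 0.55 to 1.36 FPKM. Among the former, from 0 to 24 h, Itgax stood at 44.0, 30.8, 18.3, 15.02 and 4.65 FPKM, and Ccr7, a chemokine receptor of mature dendritic cells, at 1.20, 4.82, 14.8, 11.5 and 9.13 FPKM. The 5 listed neutrophil markers summed to 324 FPKM at 0 h and 57.7 FPKM at 24 h, and their part in the results was not tested. In these bulk libraries, fewer cells of a type and less RNA per cell cannot be told apart.

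Most Zfp proteins carry C2H2 fingers, short loops in which 2 cysteines and 2 histidines hold a zinc ion, and which read DNA in tandem arrays. Many also carry a KRAB domain, which recruits the co-repressor TRIM28 (KAP1) and with it the histone methyltransferase SETDB1, a route best known for silencing transposable elements. Members without KRAB include activators, chromatin adaptors, RNA-binding proteins and ubiquitin or SUMO ligases. In the translated coding sequences of the members, a pattern search found fingers with KRAB in 105, fingers without a KRAB match in 98, and no C2H2 match in 5. The pattern misses diverged KRAB boxes. The median member held 10 fingers and the largest number was 36.

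The fingers are repeated and the genes are copied in tandem, which bears on how reads are assigned. Zfp97 and Zfp960, 2 KRAB genes that lie close together on chromosome 17, show this. Below is the coding DNA of the third finger with the usual spacing in each (GRCm38, 5′ to 3′), with the codons of the 2 cysteines and 2 histidines in capitals.
Zfp97, chr17:17145042-17145104, plus strand: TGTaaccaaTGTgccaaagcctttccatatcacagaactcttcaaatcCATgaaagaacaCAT
Zfp960, chr17:17087743-17087805, plus strand: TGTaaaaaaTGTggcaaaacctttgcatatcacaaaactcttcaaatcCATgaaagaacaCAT
The 2 stretches share 57 of 63 bases. Of the 31-base words in the longest transcript, 89.8% in Zfp97 and 91.2% in Zfp960 occur in a transcript of another gene. Here and below, 5 values in a row are those of 0, 4, 8, 12 and 24 h, in that order. Zfp97 stood at 1.92, 1.13, 1.62, 0.86 and 3.15 FPKM. Zfp960 stood at 1.52, 0.60, 0.65, 1.52 and 1.06 FPKM, so that at 12 h Zfp97 was at its lowest while Zfp960 was level with its own highest value. Their separate values are uncertain, because the deposited table divides shared reads by estimate. Across the 208 members, 45 share over 20% of their words with another gene and 16 share over 50%.

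The promoters of the 3 members with the largest difference in each direction at 4 h are shown next, among those with a window in the RefSeq table and 3 FPKM or more at 0 or 4 h. Each is given as the 250 bases before a RefSeq transcription start (GRCm38.p6, 5′ to 3′ on the strand of the gene). Capitals mark GGGCGG or its reverse complement, the GC box read by Sp and KLF factors. Zfp800, Zfp281 and Zfp263 stood above 0 h, and Zfp688, Zfp414 and Zfp580 below it. Zfp800 has 2 annotated starts, and the expression table does not say which one was used.
Zfp800, chr6:28398006-28398255, minus strand: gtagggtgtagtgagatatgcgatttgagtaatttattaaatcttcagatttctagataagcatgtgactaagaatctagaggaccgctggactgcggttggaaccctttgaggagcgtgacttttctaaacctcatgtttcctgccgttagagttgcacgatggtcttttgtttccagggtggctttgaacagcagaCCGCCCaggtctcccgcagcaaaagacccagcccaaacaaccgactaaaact
Zfp800, chr6:28261925-28262174, minus strand: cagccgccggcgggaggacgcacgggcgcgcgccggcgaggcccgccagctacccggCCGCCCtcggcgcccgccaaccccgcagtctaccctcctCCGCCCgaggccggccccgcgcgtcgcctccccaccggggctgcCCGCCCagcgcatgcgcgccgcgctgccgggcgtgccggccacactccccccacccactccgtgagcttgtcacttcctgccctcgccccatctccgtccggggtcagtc
Zfp281, chr1:136624651-136624900, plus strand: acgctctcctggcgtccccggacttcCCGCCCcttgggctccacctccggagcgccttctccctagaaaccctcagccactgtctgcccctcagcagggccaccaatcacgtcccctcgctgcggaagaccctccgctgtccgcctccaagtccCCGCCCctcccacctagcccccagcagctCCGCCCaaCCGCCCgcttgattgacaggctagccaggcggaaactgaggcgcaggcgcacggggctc
Zfp263, chr16:3743849-3744098, plus strand: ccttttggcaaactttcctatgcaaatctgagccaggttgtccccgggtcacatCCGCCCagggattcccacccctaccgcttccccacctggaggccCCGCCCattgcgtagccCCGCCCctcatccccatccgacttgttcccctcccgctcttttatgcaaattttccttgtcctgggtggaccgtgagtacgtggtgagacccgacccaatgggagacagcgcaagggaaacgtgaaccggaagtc
Zfp688, chr7:127422035-127422284, minus strand: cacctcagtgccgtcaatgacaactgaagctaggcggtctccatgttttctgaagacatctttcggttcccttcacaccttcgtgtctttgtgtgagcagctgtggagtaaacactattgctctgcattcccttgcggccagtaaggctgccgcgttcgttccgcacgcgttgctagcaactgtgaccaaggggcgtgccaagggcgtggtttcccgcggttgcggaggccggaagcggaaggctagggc
Zfp414, chr17:33628842-33629091, plus strand: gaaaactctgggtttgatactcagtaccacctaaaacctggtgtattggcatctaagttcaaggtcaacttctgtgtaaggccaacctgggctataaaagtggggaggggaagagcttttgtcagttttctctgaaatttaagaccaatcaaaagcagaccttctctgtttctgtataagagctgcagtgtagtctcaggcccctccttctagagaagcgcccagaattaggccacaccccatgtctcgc
Zfp580, chr7:5051282-5051531, plus strand: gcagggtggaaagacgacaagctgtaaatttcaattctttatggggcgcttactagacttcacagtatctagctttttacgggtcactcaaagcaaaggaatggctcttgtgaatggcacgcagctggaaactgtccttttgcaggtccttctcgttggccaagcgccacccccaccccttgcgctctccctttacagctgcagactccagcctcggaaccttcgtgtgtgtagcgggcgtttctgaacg
The GC box letters occur 3 times before the second Zfp800 start and 1 time before the first, 4 times before Zfp281 and 3 times before Zfp263. They occur 0 times before Zfp688, Zfp414 and Zfp580. Promoter windows of 300 bases (250 before and 50 after the start) were in the RefSeq table for 175 of the 208 members. GGGCGG, searched on both strands, was in the windows of 53.1% of these members and of 69.5% of all 8001 genes over the filter that had a window. It was found in 8 of the 10 members higher at 4 h, in 32 of the 53 lower at 4 h that had a window and in 53 of the other 112. The members' windows held a median of 16.5 CpG pairs, against 21 for all genes, with 10.5 where the member has a KRAB match and 22 where it has none.

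The words of signal-driven factors were each in a smaller share of members than of all genes. TGANTCA, the AP-1 word, was in the windows of 4.57% of members and 6.27% of all genes. A loose interferon response word was in 1.14% of members and 4.22% of all genes, and in 0 of the 10 members higher at 4 h. The NF-kappaB consensus was in 4.57% of members and 6.25% of all genes, and Zfp131 alone among those 10 members had it. The outer letters of the NF-kappaB site, a looser search that overlaps that consensus, were in 65.7% of members and 72.1% of all genes, and in 9 of the 10 members higher at 4 h. CACGTG, the E-box, was in 8.57% of members and 12.4% of all genes.

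A longer word was found in a larger share of members than of all genes. The word bound by ZNF143 (Zfp143 in mouse, itself a member) was in the windows of 5 members, 2.86% of those with a window, against 0.875% of all genes with one. The 5 matches are shown with their flanks, with the word or its reverse complement in capitals (GRCm38.p6, 5′ to 3′ on the strand of the gene).
Zfp1, chr8:111643404-111643443, plus strand: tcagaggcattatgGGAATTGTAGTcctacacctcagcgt
Zfp180, chr7:24081861-24081900, plus strand: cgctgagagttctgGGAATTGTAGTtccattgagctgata
Zfp58, chr13:67500527-67500566, minus strand: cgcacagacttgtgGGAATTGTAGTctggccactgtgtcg
Zfp692, chr11:58307007-58307046, plus strand: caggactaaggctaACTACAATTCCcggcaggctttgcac
Zfp933, chr4:147848425-147848464, minus strand: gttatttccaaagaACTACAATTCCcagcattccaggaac
All 5 matches begin between 22 and 48 bases before the annotated start. The 5 genes were lower at 4 h than at 0 h by log2(FPKM + 1) differences of -0.73 to -1.70, of which Zfp692 passed 2-fold. Most genes stood below 0 h at 4 h, 174 of the 208 members and 7077 of all 9795 genes over the filter. The median of all genes was -0.70, and 38.1% of them were lower by at least 2-fold. At 24 h the differences of the 5 genes ran from -0.54 to 0.58. Zfp143 stood at 5.02, 5.83, 6.17, 6.22 and 8.46 FPKM, with its highest library at 24 h. A match describes the letters in the window and is not evidence of binding.

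As a family, the Zfp genes were transcribed at low levels. The median of the members' mean FPKM was 3.09, against 10.03 for all genes over the filter, and 190 members (91.3%) had a mean under 10 FPKM, against 49.9% of all genes. The members' transcripts were of ordinary length, with a median of 3378 nt against 3035 nt. The most abundant was Zfp207, which binds the mitotic checkpoint protein Bub3, at 40.8, 66.6, 70.6, 43.9 and 39.8 FPKM from 0 to 24 h. It was highest at 4 and 8 h and back near its first level at 24 h. Zfp488 stood at 39.8 FPKM at 0 h and between 25.9 and 30.9 FPKM afterwards, and Zfp710 between 23.1 and 35.6 FPKM. Zfp277, a partner of Polycomb proteins, stayed between 21.2 and 24.6 FPKM, and Zfp384, a DNA-binding protein of the nuclear matrix, between 17.2 and 24.5 FPKM. None of the 208 was at 0 in any library.

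Summed over all members, the level was 1204, 855, 929, 1000 and 1260 FPKM. As a share of the summed FPKM of all listed genes this was 0.232%, 0.197%, 0.195%, 0.209% and 0.259%. The family sum was thus lowest at 4 h, and highest at 24 h. Members under 1 FPKM numbered 5, 57, 29, 13 and 0 in these libraries. The same count was not made for all genes, whose median log2(FPKM + 1) difference from 0 h was -0.70 at 4 h and -0.11 at 24 h.

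**Figure D1:**
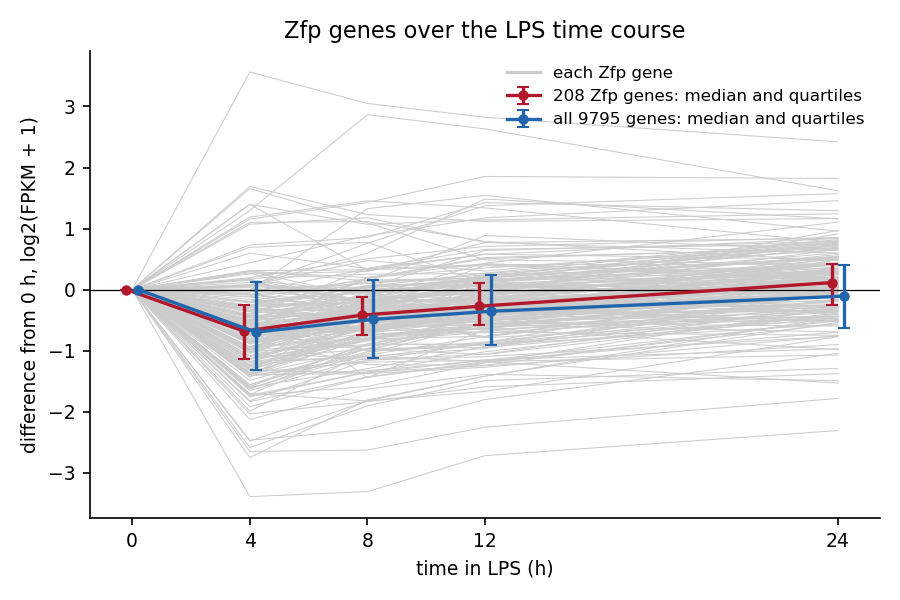
Difference from the 0 h library on the log2(FPKM + 1) scale (y) against hours in LPS (x), with each of the 208 Zfp genes as a grey line and the median and quartiles of the Zfp genes (red) and of all 9795 genes (blue). Both medians lie near -0.7 at 4 h, and at 24 h the Zfp median is 0.12 and the median of all genes -0.11.

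The 4 h library had 10 members at 2-fold or more above 0 h, as 12.2% of all genes were, and 64 members (30.8%) at 2-fold or more below it, as 38.1% of all genes were. The threshold is a difference of 1 on the log2(FPKM + 1) scale, which understates the fold of genes near 1 FPKM. The members' median difference was -0.68 and that of all genes -0.70. On this scale the members were less spread than all genes: their quartiles were -1.14 and -0.26, against -1.32 and 0.12. For all genes with a mean under 10 FPKM the quartiles were -1.42 and -0.19. The added 1 narrows differences of low genes, and the members were low. With 0.1 added instead, 51.0% of members and 44.0% of all genes were lower, with medians of -1.02 and -0.81. With libraries centred on the median gene, 15 members were higher (21.5% of all genes) and 17 lower (13.4%), and the members' median was 0.02. With the trend by transcript length removed, 13 were higher (19.8% of all genes) and 19 lower (11.9%), and the members' median was -0.15, below that of all genes. Among genes with a mean under 10 FPKM, 5 of 190 members were higher (5.89% of such genes) and 62 lower (43.6%).

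Zfp800 showed the largest difference above 0 h, with 3.09, 47.4, 32.9, 27.9 and 20.9 FPKM. It was 15.3-fold higher at 4 h and was still 6.76-fold higher at 24 h. Counting error alone, from the estimated depth, gave 95% Poisson intervals of 2.72 to 3.49 FPKM at 0 h and 45.9 to 48.9 FPKM at 4 h. Zfp263, a C2H2 protein with a SCAN domain, stood at 20.03, 65.2, 43.9, 28.5 and 27.0 FPKM. It was highest at 4 h by 3.26-fold and had returned to within 2-fold of 0 h at 12 h. Zfp281, which binds GC-rich promoters and is known from pluripotent cells, stood at 5.55, 20.1, 14.3, 13.2 and 13.7 FPKM. All 4 of its later libraries were above the first.

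Zfp319 stood at 4.13, 12.5, 9.76, 10.3 and 11.1 FPKM and so stayed high from 4 h on. Zfp513 stood at 11.5, 25.9, 26.1, 20.6 and 16.4 FPKM, and Zfp131, a BTB domain transcription factor, at 7.01, 15.8, 17.1, 12.7 and 11.1 FPKM. Both were highest at 8 h and within 2-fold of 0 h at 12 and 24 h. The other 4 members higher at 4 h have a KRAB match and low levels. Zfp382 stood at 1.22, 4.85, 1.76, 2.32 and 2.13 FPKM, a single high library at 4 h. Zfp619 stood at 1.02, 3.60, 4.53, 4.11 and 2.44 FPKM, and Zfp558 at 0.26, 2.09, 8.18, 6.81 and 2.87 FPKM, both highest at 8 h. Zfp811 stood at 0.09, 1.43, 1.93, 2.94 and 2.85 FPKM, with about 6.09 reads behind the first value at the estimated depth. Among these 10, at most 6.05% of transcript words were shared with another gene. Exons of a gene on the opposite strand overlap Zfp800, Zfp319 and Zfp513.

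Of the 64 members lower at 4 h, Zfp395, a factor with a single C2H2 match, had the largest difference. It stood at 9.80, 0.03, 0.09, 0.64 and 1.18 FPKM. The 4 h value stands for about 2.38 reads and the 95% counting interval reached 0.10 FPKM. Zfp688, a KRAB gene on chromosome 7, stood at 9.64, 0.58, 2.04, 2.98 and 6.85 FPKM, and was back within 2-fold of 0 h at 24 h. Zfp704, a paralogue of Zfp395, stood at 6.91, 0.26, 0.28, 0.66 and 1.30 FPKM, low in all 4 later libraries. Zfp524 stood at 20.2, 2.53, 4.67, 6.55 and 7.67 FPKM, Zfp414 at 19.5, 2.67, 4.79, 5.45 and 11.0 FPKM, and Zfp362 at 9.17, 0.84, 1.08, 1.92 and 3.93 FPKM. These 3 were higher at each step after 4 h but did not reach the 0 h level. Zfp524 shares 50.3% of its words with another gene model and Zfp414 25.9%.

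**Figure D2:**
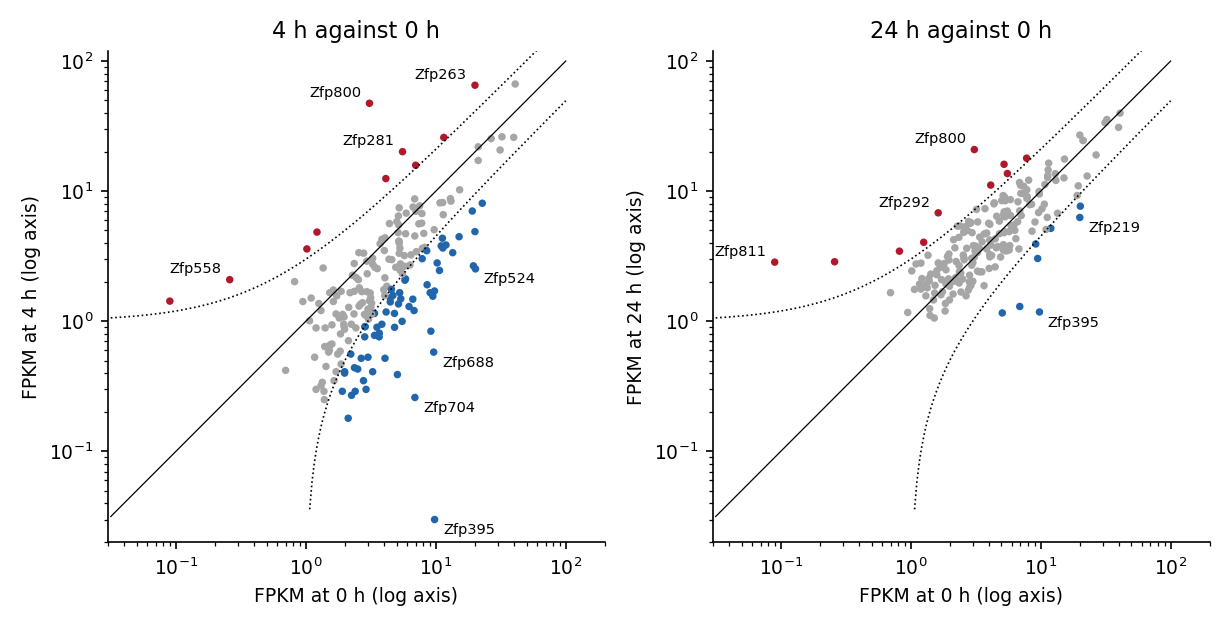
FPKM of each of the 208 Zfp genes at 4 h (left) and 24 h (right) against 0 h on log axes, with dotted lines at 2-fold on the log2(FPKM + 1) scale. At 4 h, 10 genes lie above the lines (red) and 64 below (blue), and at 24 h 10 lie above and 8 below.

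The later libraries lay closer to 0 h. At 8 h, 10 members were higher than at 0 h (12.0% of all genes) and 31 lower (28.9%), with a median of -0.42 against -0.49 for all genes. At 12 h, 11 were higher (12.3% of all genes) and 23 lower (21.5%), with a median of -0.27 against -0.35. Centred on the median gene, these counts were 15 higher and 10 lower at 8 h (18.0% and 14.9% of all genes) and 17 higher and 9 lower at 12 h (16.5% and 12.9%). At 24 h, 10 were higher (11.3% of all genes) and 8 lower (14.5%), and the median was 0.12 against -0.11. Centred, the 24 h counts were 13 higher (12.6% of all genes) and 6 lower (12.3%), and with the length trend removed 11 higher (11.8%) and 4 lower (10.1%). Within 2-fold of 0 h at all 4 later times, without centring or length correction, were 126 members. The same count was not made for all genes, so it does not show whether the family was steadier than others.

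Of the 64 members lower at 4 h, 56 (87.5%) were no longer 2-fold below 0 h at 24 h, against 68.7% of all genes lower at 4 h. By 24 h, 40 of the 64 (62.5%) stood at least 2-fold above their own 4 h level, against 46.6% of all such genes. At or above the 0 h level were 13 (20.3%), against 14.3%.

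Comparing 24 h directly with 4 h, 72 members (34.6%) were at least 2-fold higher, against 25.0% of all genes, and 2 were lower, against 8.19%. The median difference was 0.80 for members and 0.49 for all genes. Among genes with a mean under 10 FPKM, 71 of 190 members were higher, against 31.3% of such genes, and 0 lower, against 4.83%. The members' median was 0.84 in this range, and that of all such genes 0.67. Centred on the median gene, 17 members were higher (9.65% of all genes) and 7 lower (15.3%), and with the length trend removed 17 were higher (9.58%) and 7 lower (15.1%). The members' median then stood at 0.31 under either scaling. The 2 members lower at 24 h than at 4 h were Zfp263 and Zfp800, both described above.

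The steps between neighbouring times were small for most members. From 4 to 8 h, Zfp52, Zfp558 and Zfp503 were at least 2-fold higher (5.23% of all genes), and Zfp382 and Zfp703 lower (3.88%). Zfp503 and Zfp703 encode co-repressors of the NET family and differed in course. Zfp503 stood at 2.29, 2.26, 7.25, 8.59 and 5.39 FPKM, high from 8 h. Zfp703 stood at 26.7, 25.4, 9.17, 16.7 and 19.0 FPKM, with its lowest library at 8 h. From 8 to 12 h, 0 members were higher (2.58% of all genes) and 0 lower (0.939%). From 12 to 24 h, Zfp97, Zfp932 and Zfp758 were higher (3.42% of all genes) and Zfp558 lower (3.50%). Zfp932 stood at 11.3, 3.66, 4.51, 5.75 and 13.2 FPKM, and 59.1% of its words occur in another gene.

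The time at which each gene was lowest and highest describes the course without a threshold. The 4 h library was the lowest of the 5 for 149 members (71.6%), against 46.1% of all genes, and the 24 h library was the highest for 103 (49.5%), against 24.5%. The 0 h library was the highest for 80, against 48.7% of all genes. The level was higher at each step from 4 to 24 h in 120 members (57.7%), against 31.7%. Among genes with a mean under 10 FPKM these shares were 75.3% of 190 members against 53.2% for the lowest library at 4 h (143 members), 50.5% against 30.3% for the highest at 24 h (96 members) and 59.5% against 40.1% for a higher level at each step (113 members). With libraries centred on the median gene, 33.2% of members and 22.5% of all genes were lowest at 4 h, 35.6% and 15.3% were highest at 24 h, and 19.7% and 12.0% were higher at each step. With the length trend removed, these shares were 41.8% against 23.6%, 32.7% against 16.4% and 19.2% against 12.9%.

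**Figure D3:**
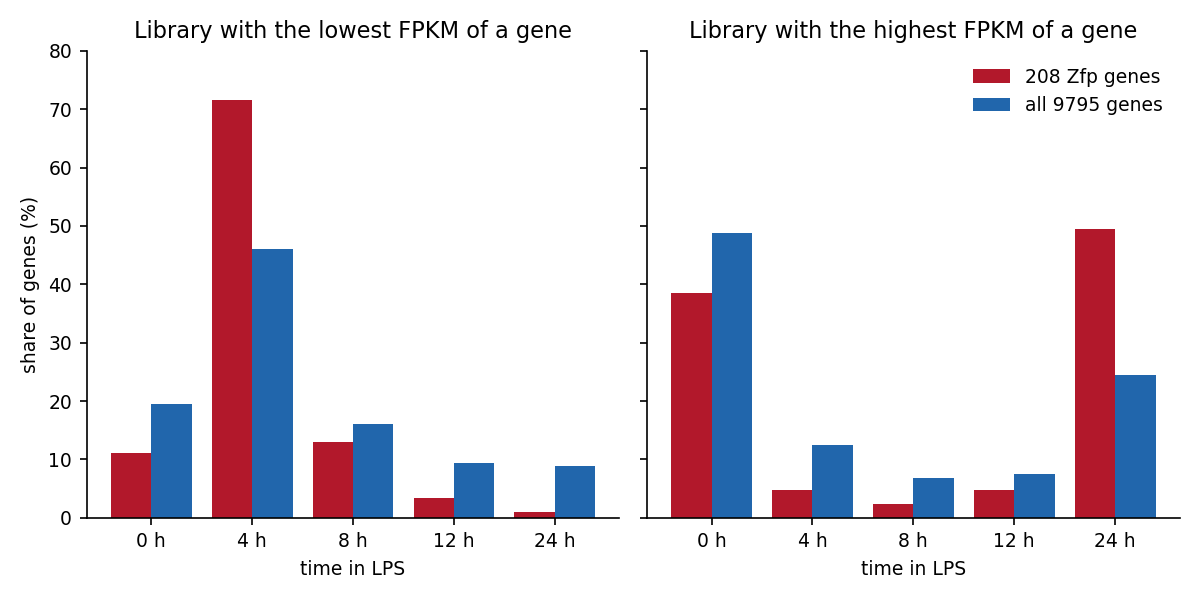
Share of the 208 Zfp genes (red) and of all 9795 genes (blue), in %, whose lowest (left) or highest (right) FPKM was in the library of each time. The 4 h library was the lowest for 71.6% of Zfp genes and 46.1% of all genes, and the 24 h library the highest for 49.5% and 24.5%.

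The 10 members higher at 24 h than at 0 h were Zfp292, Zfp558, Zfp821, Zfp319, Zfp719, Zfp281, Zfp445, Zfp811, Zfp324 and Zfp800. Of these, 5 were also among the 10 higher at 4 h (Zfp281, Zfp319, Zfp558, Zfp800 and Zfp811), and the other 5 were within 2-fold of 0 h at 4 h. Zfp292, a large transcription factor, stood at 1.63, 1.74, 3.45, 5.82 and 6.82 FPKM, level at first and higher at each later time. Zfp821 stood at 5.23, 7.45, 10.5, 13.1 and 16.1 FPKM, each library above the one before. Zfp445, a KRAB protein that guards genomic imprints, stood at 7.80, 5.68, 7.12, 10.9 and 17.9 FPKM. It was lowest at 4 h and 2.30-fold above 0 h at 24 h, a difference of 1.11 that was 0.87 with the length trend removed. Zfp719 stood at 0.82, 2.02, 2.29, 3.89 and 3.46 FPKM, and Zfp324 at 1.26, 1.37, 2.42, 5.32 and 4.05 FPKM, both highest at 12 h.

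All 8 members lower at 24 h were also lower at 4 h. They were Zfp395, Zfp704, Zfp219, Zfp580, Zfp579, Zfp524, Zfp90 and Zfp362. Zfp219, a transcription factor that partners Sox9, stood at 20.02, 4.89, 6.80, 8.28 and 6.28 FPKM. Zfp579 stood at 9.49, 1.56, 1.94, 2.48 and 3.04 FPKM, and Zfp580 at 5.07, 0.39, 0.96, 1.32 and 1.16 FPKM. In each of these 3 the later libraries did not reach the level of 0 h. Zfp90 stood at 12.0, 3.86, 5.09, 4.74 and 5.18 FPKM, with 72.0% of its words also in Gm26786, a gene model on the opposite strand. Zfp90 was the only one of the 8 with a KRAB match. With the length trend removed, Zfp219, Zfp395, Zfp579 and Zfp704 remained lower at 24 h, and Zfp362, Zfp524, Zfp580 and Zfp90 did not. With libraries centred on the median gene, Zfp90 and Zfp362 were no longer past 2-fold at 24 h.

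**Figure D4:**
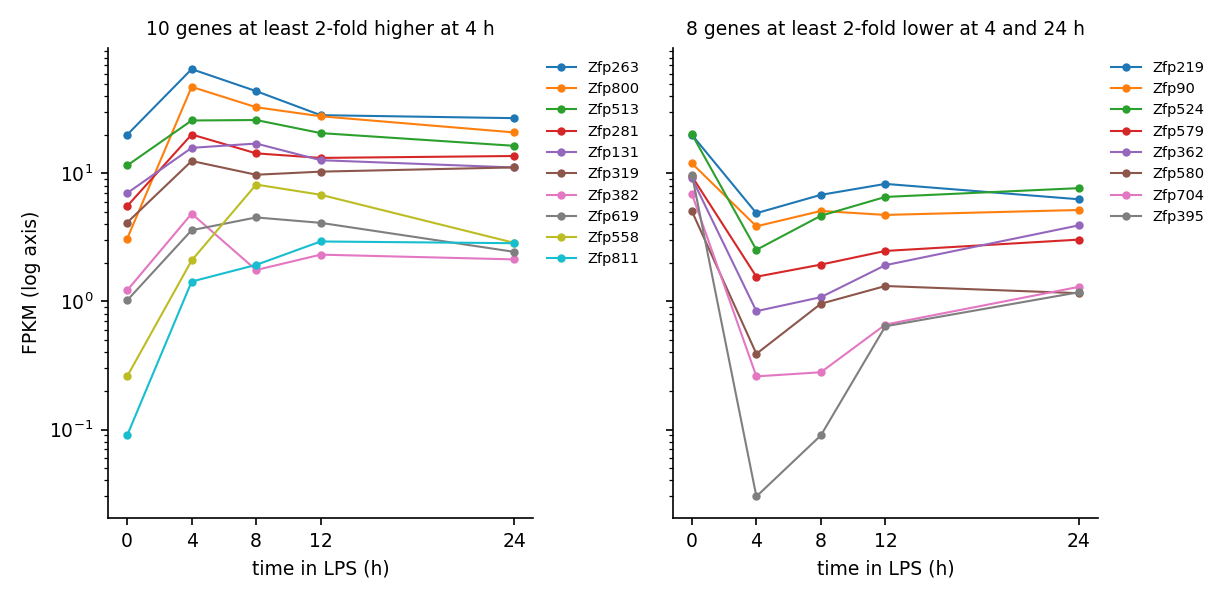
FPKM on a log axis against hours in LPS for the 10 Zfp genes that stood 2-fold or more above 0 h at 4 h (left) and the 8 at least 2-fold lower at both 4 and 24 h (right), 1 line per gene and 1 library per point. Zfp800 goes from 3.09 to 47.4 FPKM between 0 and 4 h, and Zfp395 from 9.80 to 0.03 FPKM.

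By structure, the 105 members with fingers and KRAB had 4 higher and 33 lower at 4 h (31.4% lower), and the 98 with fingers and no KRAB match had 6 higher and 30 lower (30.6% lower). Both shares lie under the 12.2% of all genes that were higher and the 38.1% that were lower. The medians were -0.80 and -0.60, and -0.18 and -0.12 with the length trend removed. At 24 h against 0 h, the KRAB members had 5 higher and 1 lower, and the others 5 higher and 7 lower, against 11.3% and 14.5% of all genes. The medians were 0.12 in both, and 0.20 and 0.01 with the length trend removed. The 4 h library was the lowest for 81 of the 105 and 64 of the 98, and the 24 h library the highest for 57 and 45. Between 4 and 24 h, 41 KRAB members were higher and 0 lower, against 30 and 2 of the others and 25.0% and 8.19% of all genes. Centred on the median gene, these counts were 13 and 2 against 4 and 5, where 9.65% of all genes were higher and 15.3% lower. The KRAB members were the less abundant class, with a median mean level of 2.29 FPKM against 4.76 FPKM, and more of their words were shared, with a median of 6.92% against 1.47%.

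Members with few fingers lay further below 0 h at 24 h. Among the 31 members with 0 to 3 fingers the median difference was -0.72 at 4 h and -0.24 at 24 h, and 8 had their highest library at 24 h. Among the 64 members with 13 to 36 fingers the medians were -0.66 and 0.19, and 36 had their highest library at 24 h. Across the 208 members, Spearman's rho between finger number and the difference at 24 h was 0.25, and 0.17 with the length trend removed. The points share their 2 libraries, and finger number and transcript length were related (rho 0.21), so these values describe the members only. Transcript length went with the difference at 4 h: the 52 members with the shortest transcripts had a median of -0.92 and the 52 with the longest -0.52, which were -0.07 and -0.30 once the trend of all genes was removed.

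Zfp genes lie in tandem runs. With starts no more than 1 Mb apart and at least 3 members, 19 runs held 108 of the 208 members, and chromosome 7 alone carried 50 members and chromosome 17 carried 27. The largest run, chr17:21008941-23564226 (GRCm38), held 16 members from Zfp160 to Zfp213, of which 15 have a KRAB match. Its summed level was 49.4, 20.6, 37.4, 43.9 and 73.8 FPKM. At 4 h, 6 of the 16 were lower by at least 2-fold and 0 higher, with a median of -0.96, and 37.5% is close to the 38.1% of all genes. Centred or with the length trend removed, 0 of the 16 were past 2-fold at 4 h. At 24 h, 0 of the 16 were past 2-fold against 0 h, with a median of 0.34. Centred, Zfp677 and Zfp758 were higher than at 0 h (12.6% of all genes), as they were with the length trend removed (11.8%). Against 4 h, 13 of the 16 were at least 2-fold higher at 24 h, against 25.0% of all genes. Under either scaling 7 of the 13 remained so (9.65% and 9.58% of all genes), with a median of 0.87 centred and 0.82 without the length trend. Zfp677 stood at 2.40, 0.29, 1.52, 2.21 and 5.40 FPKM, the largest difference between 4 and 24 h in the run. Zfp52 stood at 5.28, 1.66, 4.76, 5.85 and 8.53 FPKM, and its neighbour Zfp53 at 2.86, 0.91, 2.64, 3.49 and 5.66 FPKM. Zfp758 stood at 3.21, 1.38, 2.78, 3.06 and 7.24 FPKM, so that these 4 genes were lowest at 4 h and highest at 24 h. The 2 members at the ends of the run differed from them: Zfp160 stood at 4.07, 4.38, 3.96, 3.72 and 5.57 FPKM and Zfp213 between 1.24 and 1.66 FPKM. So did Zfp945, which lies inside the run, with differences from 0 h of -0.06 at 4 h and 0.15 at 24 h. Zfp160, Zfp213 and Zfp945 were the members of the run not 2-fold higher at 24 h than at 4 h.

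The run at chr13:67194506-67755202 (GRCm38) held 11 members, all with KRAB, and none of them passed 2-fold from 0 h at any later time. The 11 together summed to 31.8 FPKM at 0 h, a range where adding 1 FPKM narrows differences. A median of 22.9% of their words occur in another gene, so these values do not show that the run was steady. At 4 h, 12.2% of all genes were higher and 38.1% lower. With the length trend removed, Zfp429 alone was higher at 8 and 24 h (17.8% and 11.8% of all genes). The differences of the 11 at 4 h ran from -0.97 to 0.07 and at 24 h from -0.09 to 0.82. The run at chr7:29768552-30169775 held 9 members, of which Zfp382 was higher at 4 h and 0 were lower. The run at chr7:127233061-127885996 held 9 members including Zfp688, with 6 lower at 4 h and 0 past 2-fold at 24 h. Its median at 4 h was -1.13, against -0.70 for all genes. Centred, 3 of the 9 were lower at 4 h (13.4% of all genes), and 2 with the length trend removed (11.9%). Zfp764 in this run stood at 4.07, 0.52, 0.69, 1.21 and 3.13 FPKM, and Zfp646 at 5.85, 2.12, 2.84, 3.97 and 8.61 FPKM.

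The run at chr7:4915181-5053723 (GRCm38) held Zfp628, Zfp579, Zfp524, Zfp865, Zfp784 and Zfp580, none with a KRAB match. Its summed level was 48.7, 15.7, 18.7, 22.1 and 23.9 FPKM. At 4 h, 4 of the 6 were lower, and at 24 h Zfp579, Zfp524 and Zfp580 still were, where 38.1% and 14.5% of all genes were lower. Centred, Zfp579, Zfp524 and Zfp580 were lower at both times (13.4% and 12.3% of all genes). With the length trend removed, Zfp579 and Zfp524 were lower at 4 h (11.9%), and Zfp579 alone at 24 h (10.1%). Zfp628, by contrast, stood between 4.95 and 6.78 FPKM and Zfp865 between 4.12 and 5.54 FPKM. Zfp784 stood at 2.78, 0.35, 0.94, 0.96 and 1.74 FPKM, but 94.8% of its words also occur in a transcript of Zfp865, whose exons overlap it on the opposite strand, so its own level is uncertain.

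**Figure D5:**
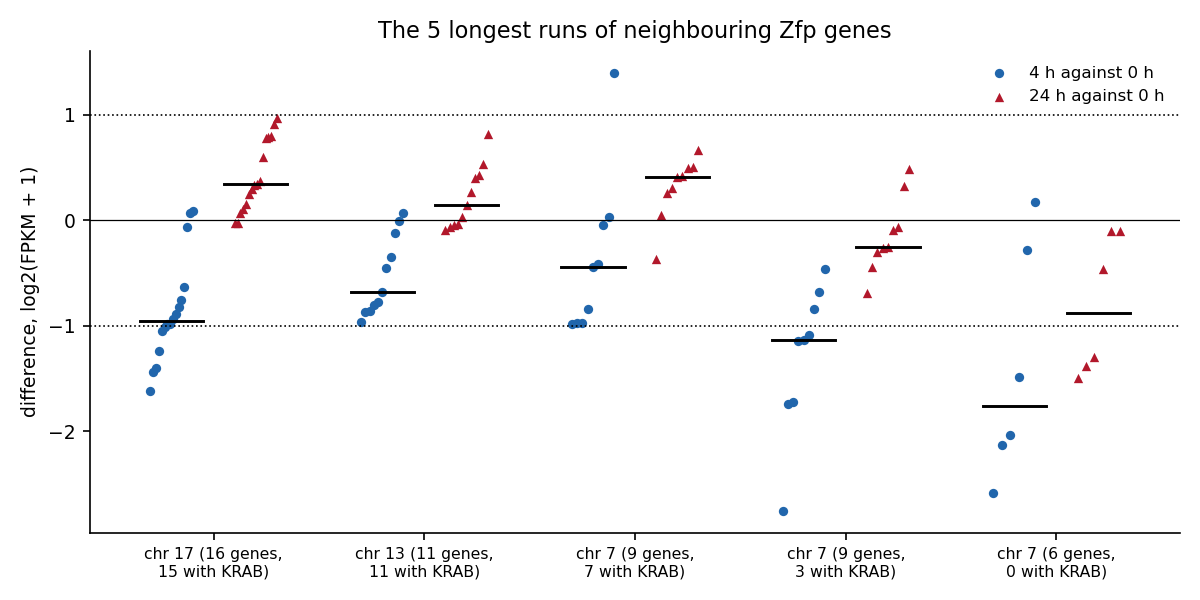
Difference from 0 h on the log2(FPKM + 1) scale of each member of the 5 longest runs of neighbouring Zfp genes, at 4 h (blue circles) and 24 h (red triangles), with black bars at the medians and dotted lines at 2-fold. In the run of 16 genes on chromosome 17 the median goes from -0.96 to 0.34, and in the run of 6 genes on chromosome 7 from -1.76 to -0.88.

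Members with known tasks were taken from lists of roles, which also hold repressors such as Zfp703. Of 10 members that act on RNA or ribosomes, 0 were higher and 2 lower at 4 h, where 38.1% of all genes were lower, and 0 were past 2-fold at 24 h. The 2 were Zfp622, a factor of large ribosomal subunit assembly, and Zfp706. Neither was past 2-fold at 4 h once libraries were centred or the length trend was removed. With the length trend removed, Zfp706 was lower at 8 and 12 h (13.3% and 10.4% of all genes). Zfp207, also on this list, was higher at 4 h by 1.39 when centred and 1.43 without the length trend (21.5% and 19.8% of all genes). Zfp622 stood at 19.1, 7.04, 6.80, 8.07 and 9.27 FPKM, low in all later libraries. Zfp706 stood at 22.8, 8.08, 8.16, 8.86 and 13.1 FPKM. Zfp598, the ubiquitin ligase that marks collided ribosomes, was lowest at 8 h, at 11.3, 8.18, 5.17, 7.60 and 12.8 FPKM. Zfp346, which binds double-stranded RNA, was the one member of this list to stand 2-fold or more above its 4 h level at 24 h, at 3.17, 1.28, 2.50, 2.95 and 3.78 FPKM.

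Of 16 transcription factors on the list, 3 were higher at 4 h (Zfp263, Zfp281 and Zfp131) and 3 lower (Zfp395, Zfp219 and Zfp652). Of all genes, 12.2% were higher and 38.1% lower. Zfp652 was not past 2-fold at 4 h once libraries were centred. At 24 h, 2 of the 16 were higher and 2 lower, against 11.3% and 14.5% of all genes. The median difference of the 16 was -0.08 at 4 h and 0.46 at 24 h, against -0.70 and -0.11 for all genes. Zfp652 stood at 3.85, 0.95, 2.83, 5.40 and 4.77 FPKM, a single low library at 4 h. Zfp148, a close relative of Zfp281, stood at 5.24, 3.99, 3.94, 4.62 and 6.39 FPKM, and was not high at 4 h. Zfp410, known as the activator of Chd4, stood at 5.14, 4.80, 5.84, 5.99 and 9.25 FPKM. Chd4 itself stood between 43.1 and 62.4 FPKM, highest at 4 h. Of the 3 ubiquitin and SUMO ligases, none passed 2-fold from 0 h at 4 or 24 h. Zfp91 stood at 31.3, 20.7, 23.8, 27.4 and 33.6 FPKM and the SUMO ligase Zfp451 at 3.98, 1.75, 3.92, 4.40 and 5.67 FPKM, both lowest at 4 h and highest at 24 h.

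The partners of the KRAB domain were read alongside. Of 17 genes of the co-repressor list, 2 were higher and 6 lower at 4 h, with a median of -0.58, and 3 higher and 1 lower at 24 h, with a median of -0.07. These values lie near those of all genes at 4 h, where 38.1% were lower and the median was -0.70, and centred, 2 of the 17 were lower. Trim28, the co-repressor that KRAB recruits, stood at 35.9, 15.2, 24.6, 34.4 and 29.8 FPKM. Setdb1, the methyltransferase that acts with it, stood at 10.5, 3.99, 5.87, 7.63 and 12.2 FPKM. Both were lowest at 4 h. So were 9 of the 17 genes of the list, 81 of the 105 KRAB members and 46.1% of all genes. Centred, neither was past 2-fold at 4 h, and the 2 that were lower were Cbx3 and Dnmt1, against 13.4% of all genes. Dnmt1 stood at 14.3, 1.96, 3.94, 9.90 and 18.9 FPKM. Cbx3, an HP1 protein, stood at 42.6, 3.88, 8.05, 10.5 and 17.1 FPKM, still 2-fold below 0 h at 24 h. The 2 genes higher at 4 h were Morc3, at 14.9, 57.0, 52.1, 47.3 and 51.9 FPKM, and the deacetylase Hdac1, at 21.5, 48.6, 63.8, 56.0 and 47.9 FPKM. Of 4 genes of the HUSH silencing complex, Mphosph8 was lower at 4 h, against 38.1% of all genes, at 12.9, 2.27, 4.12, 5.63 and 9.65 FPKM. At 24 h 0 were past 2-fold, where 11.3% of all genes were higher and 14.5% lower. Centred, Mphosph8 was lower at 4 h (13.4% of all genes) and Pphln1 higher (21.5%).

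Other zinc finger families, chosen by symbol, show how far the course was shared. The 4 h library was the lowest for 22 of 32 Zbtb genes, 9 of 12 Zkscan and Zscan genes and 6 of 6 Zmym genes, against 149 of 208 Zfp genes and 46.1% of all genes. It was the lowest for 8 of 15 Zc3h genes, whose CCCH fingers bind RNA, and for 9 of 18 Zdhhc genes, which encode palmitoyl transferases. The 24 h library was the highest for 14 Zbtb, 5 Zkscan and Zscan, 3 Zmym, 4 Zc3h and 5 Zdhhc genes. For Zfp genes this was 103 of 208, and for all genes 24.5%. The level was higher at each step from 4 to 24 h in 16 Zbtb, 8 Zkscan and Zscan, 4 Zmym, 7 Zc3h and 7 Zdhhc genes. For Zfp genes this was 120 of 208, and for all genes 31.7%. Median differences at 4 h were -0.60 for Zbtb, -0.65 for Zmym, -0.11 for Zc3h and -1.17 for Zdhhc genes, and 6 of the 12 Zkscan and Zscan genes were lower by at least 2-fold, against 38.1% of all genes. At 24 h these medians lay between -0.10 and 0.10, against 0.12 for the Zfp genes. Differences between families were not tested.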

How the data were processed

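RNA sequencing libraries of mouse macrophages at 5 times in LPS were read from 1 table of FPKM that the authors deposited, in which each library has its own column, per the file headers. The submitters' processing notes name Bowtie2, RSEM and GRCm38. For annotation, filters and versions, nothing is given in these sources. RSEM-type values are estimates that divide shared reads between copies, and a gene's FPKM falls when other genes take more of the library.

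Members and gene lists were chosen with earlier results of these data known. Genes entered with a mean of at least 1 FPKM. Differences were taken on log2(FPKM + 1) from the deposited FPKM, with 2-fold as the threshold and no test, since each time has 1 library. All 5 comparisons were repeated with pseudocounts of 0.1 and 5, with no filter, with a mean of at least 5 FPKM, with a 3-fold threshold, with each library shifted to the same median gene and with the trend by transcript length removed (running median over 21 length bins). Chosen after the data had been seen were the alternative of members sharing at most 20% of words, the comparison with genes under 10 FPKM, the scalings within runs, classes and lists, the promoters printed and the NF-kappaB consensus. Low values of genes in whole-read steps placed the depth at 18.8 to 19.35 M reads (megareads) per library, searched between 8 and 40 M. Between 48.8% and 60.7% of 62 to 84 values were whole within 0.04 reads, against 16.8% to 17.6% by chance, so the depth is an estimate, and the Poisson intervals (95%) cover counting error only.

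Transcript length, 31-base words, fingers (C, 2 to 4 residues, C, 12 residues, H, 3 to 5 residues, H) and KRAB boxes came from GENCODE M21 transcripts, translated because no protein table was used, and the KRAB pattern was widened after sequences had been viewed. All 208 gene identifiers matched RefSeq for GRCm38.p6, where 1 member has another symbol. Genes were named by rule: the 8 with the highest mean, the 6 with the largest difference in each direction at 4 h against 0 h, 24 h against 0 h and 24 h against 4 h with 3 FPKM in 1 library, all members higher at 4 h, and the lists of roles. Named outside it were members at the threshold in a step or at 24 h, members of runs, and those with promoter words or shared words. Counting was checked on simulated data. Tools were Python 3.11.15, pandas 2.3.3, numpy 2.4.6 and scipy 1.17.1.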

Additional observations from a re-analysis of the deposited data

How the results depend on the processing

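Counts at the 2-fold threshold moved with the scale, while the medians of members kept their sign at 4, 8 and 12 h against 0 h under every setting tried except shifting each library to the same median gene. A change of pseudocount cannot change the sign of a difference, so the pseudocount settings could not test the signs. Under the shift to the median gene the medians were 0.016 at 4 h, 0.067 at 8 h and 0.082 at 12 h, against -0.68, -0.42 and -0.27, by construction close to the distance from all genes. The median was then 0.22 at 24 h and 0.31 for 24 h against 4 h, 17, 10 and 9 members were lower at 4, 8 and 12 h, 17 higher at 12 h, and 17 higher and 7 lower at 24 h against 4 h. With the length trend removed, 19, 11, 6 and 4 members were lower at 4, 8, 12 and 24 h, and 17 higher and 7 lower at 24 h against 4 h, with medians of -0.15, -0.022, -0.0017 and, for 24 h against 4 h, 0.31.

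With a pseudocount of 0.1, which widens differences of low genes, 106, 56 and 40 members were lower at 4, 8 and 12 h, 19 were higher at 24 h and 116 higher at 24 h against 4 h (of all genes, 44.0%, 34.1%, 26.0%, 13.3% and 32.6%, where 106 of 208 is 51.0% and 116 is 55.8%), with medians of -1.02, -0.55, -0.35 and 1.09 (4, 8 and 12 h, and 24 h against 4 h). With a pseudocount of 5, which narrows them, 3, 2, 2 and 2 members were higher and 15, 11, 6 and 2 lower at 4, 8, 12 and 24 h, and 6 were higher at 24 h against 4 h (of all genes, 9.34%, 9.01%, 8.67% and 7.30% higher, 20.2%, 15.7%, 12.1% and 8.59% lower, and 8.57%). The medians were -0.30, -0.20, -0.12 and 0.36. At a 3-fold threshold, 3, 2, 3 and 3 members were higher and 22, 10, 5 and 2 lower, with 13 higher and 0 lower for 24 h against 4 h (of all genes, 7.97%, 7.62%, 7.61% and 6.39% higher, 16.3%, 12.9%, 8.74% and 5.83% lower, and 8.03% and 3.73%). Without the filter the median of 310 members was -0.59 at 4 h and 0.66 for 24 h against 4 h, against -0.42 and 0.29 for all genes. Among the 62 members with a mean of at least 5 FPKM, 6 were higher and 17 lower at 4 h (15.3% and 35.5% of all such genes), 12 lower at 8 h (26.4%), 5 higher and 8 lower at 12 h (14.5% and 20.5%), 5 higher and 3 lower at 24 h (13.1% and 14.6%), and 16 higher at 24 h against 4 h (22.1%), with medians of -0.43 at 4 h and 0.58 for 24 h against 4 h. For the 163 members sharing at most 20% of their words, chosen after the data were seen, all 15 counts and medians stayed near the main values. Near meant counts within 1.5 times, or medians within limits for the members' median taken over genes. The 163 are part of the same 208, so nearness was likely from the start, and limits taken over genes do not measure replicate error.

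Named members had 58 values past 2-fold at 4 h against 0 h, 24 h against 0 h or 24 h against 4 h. Of these, 24 stayed past it with a pseudocount of 5, 45 after the shift to the median gene and 41 without the length trend. All 58 stayed past it with a pseudocount of 0.1, which was fixed in advance, because a smaller pseudocount can only widen a difference. In all 4 settings 0 changed sign, but a change of pseudocount cannot change a sign. Many of these members were named for having the largest differences. With 1 library per time, no value has a replicate error, and below about 1 FPKM few reads stand behind a value. No paired analysis was possible because each time has 1 library and all titles carry the same number.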
